A study of Mus musculus with 43 samples.

Results

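Immediate early genes were followed in the lungs of mice given house dust mite (HDM), an airway allergen. The members were 10 genes chosen by symbol and mapped to Entrez gene IDs: the transcription factor genes Fos, Fosb, Jun, Junb, Atf3, Egr1 and Nr4a1, the phosphatase gene Dusp1, and Ier2 and Ier3. They are 10 of 24475 IDs in the count table, and all 10 were among the 15598 genes with enough counts to test. All mice were of genotype Il33hu/hu on a mixed background given as C57BL/6NTac (75%) / 129S6SvEvTac (25%), which every group, saline included, shares. There were 7 libraries from saline mice, 10 after 4 weeks of HDM and 7 after 15 weeks of HDM, all without antibody. A further 4 libraries came from mice given an isotype control antibody, and 15 from mice given an antibody against the cytokine IL-33, both with 15 weeks of HDM. The sources used here give no age, no dose, no timing of the antibody, no time label for saline and no interval between the last exposure and collection of the lung. In every contrast with saline, HDM and age or time in the study cannot be told apart. Between 4 and 15 weeks of HDM, length of exposure and age or time in the study likewise cannot be told apart. The labels do not say that each library is a separate animal, so p-values measure only the spread between these samples.

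Immediate early genes are switched on within minutes of a stimulus by factors already present in the cell, with no need for new protein. Growth factor receptors, stress and cytokines reach them through MAP kinases, which act on serum response factor (SRF) with its ELK partners and on CREB. Most of the products are transcription factors, some are feedback inhibitors, and their transcripts are short-lived. FOS and JUN family proteins pair to form the AP-1 factor, EGR1 is a zinc finger factor, NR4A1 is an orphan nuclear receptor, and DUSP1 removes phosphate from the MAP kinases themselves. In lung they are expressed in epithelium, endothelium, stroma and myeloid cells alike.

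The bases just before the start of 5 members are shown first, because these genes are known as targets of CREB and ATF factors and they behaved differently in the mice. RefSeq start windows on GRCm38.p6 were matched for 8 of the 10 members, the others being Egr1 and Ier2. Each sequence is 150 bases, read 5′ to 3′ on the strand of the gene and ending at the base before the start in that table. For Nr4a1 this start lies inside the span of the gene, 101253902 to 101274795, and not at its outer end. The same holds for Fosb, whose sequence is not shown. Capitals mark TGACG, the core of the cAMP response element, in either orientation (CGTCA on the opposite strand), and in Fos also TATAAA.

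Atf3, chr1:191183334-191183483, minus strand: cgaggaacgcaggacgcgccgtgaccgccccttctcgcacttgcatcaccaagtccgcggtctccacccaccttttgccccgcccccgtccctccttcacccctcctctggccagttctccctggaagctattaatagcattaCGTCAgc

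Junb, chr8:84978749-84978898, minus strand: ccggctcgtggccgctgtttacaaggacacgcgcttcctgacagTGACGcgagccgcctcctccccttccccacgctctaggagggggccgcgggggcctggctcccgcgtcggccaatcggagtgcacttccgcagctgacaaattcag

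Fos, chr12:85473740-85473889, plus strand: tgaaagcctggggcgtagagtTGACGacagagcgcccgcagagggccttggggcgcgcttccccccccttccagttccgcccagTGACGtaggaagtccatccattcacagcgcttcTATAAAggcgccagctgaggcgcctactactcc

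Dusp1, chr17:26508473-26508622, minus strand: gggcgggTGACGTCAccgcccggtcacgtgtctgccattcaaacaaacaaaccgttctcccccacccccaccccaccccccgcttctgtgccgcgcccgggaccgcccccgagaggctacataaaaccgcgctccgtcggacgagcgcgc

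Nr4a1, chr15:101266696-101266845, plus strand: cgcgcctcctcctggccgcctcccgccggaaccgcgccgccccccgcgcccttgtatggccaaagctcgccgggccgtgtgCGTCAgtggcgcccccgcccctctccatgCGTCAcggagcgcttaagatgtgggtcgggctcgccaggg

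Over the 250 bases before the start, on both strands, TGACG occurred in 6 of the 8 members against 17.8% of all 32851 windows of that length in the table. Fos, Fosb, Junb, Atf3, Nr4a1 and Dusp1 carried it, and Jun and Ier3 did not. The whole palindrome TGACGTCA, which contains TGACG, occurred in Dusp1 only, 143 to 136 bases before the start, against 1.55% of windows. The AP-1 motif TGANTCA was in none of the 8 (6.75% of windows), and neither was the CArG box, the motif of SRF (1.47%). The EGR motif GCGNGGGCG occurred in Fosb and Nr4a1 (4.70%), and TATAAA in Fos (12.4%). These are letters in a window and not measured binding.

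Per kilobase of transcript the members differed widely in mean level over all 43 libraries. Ier3 stood highest at 73.3 CPM (read counts per M counts of the library, M as in mega) per kilobase, followed by Jun at 51.5 and Junb at 48.7. Dusp1 had 33.7, Ier2 24.9, Fos 14.8, Atf3 13.2, Nr4a1 11.7 and Egr1 9.14 CPM per kilobase. Fosb was lowest at 0.957, which corresponded to 11 to 78 counts per library, so its ratios are the least precise. Library totals ran from 4.80 to 12.6 M counts. The sample numbers in the labels fall into 2 separate ranges of 22 and 21 libraries, and the sources used here do not say what they stand for. Every group has libraries in both ranges, and the fit carries a term for them. A few libraries stood apart from their groups for many members. HDM15wk replicate 1 held the highest value of its group for 6 of the 10, anti-IL-33 replicate 7 for 6, saline replicate 6 for 7 and isotype replicate 1 for 7, and calls that change without 1 of them are given both ways. All CPM below use library sizes scaled between samples and are not divided by length.

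**Figure D1:**
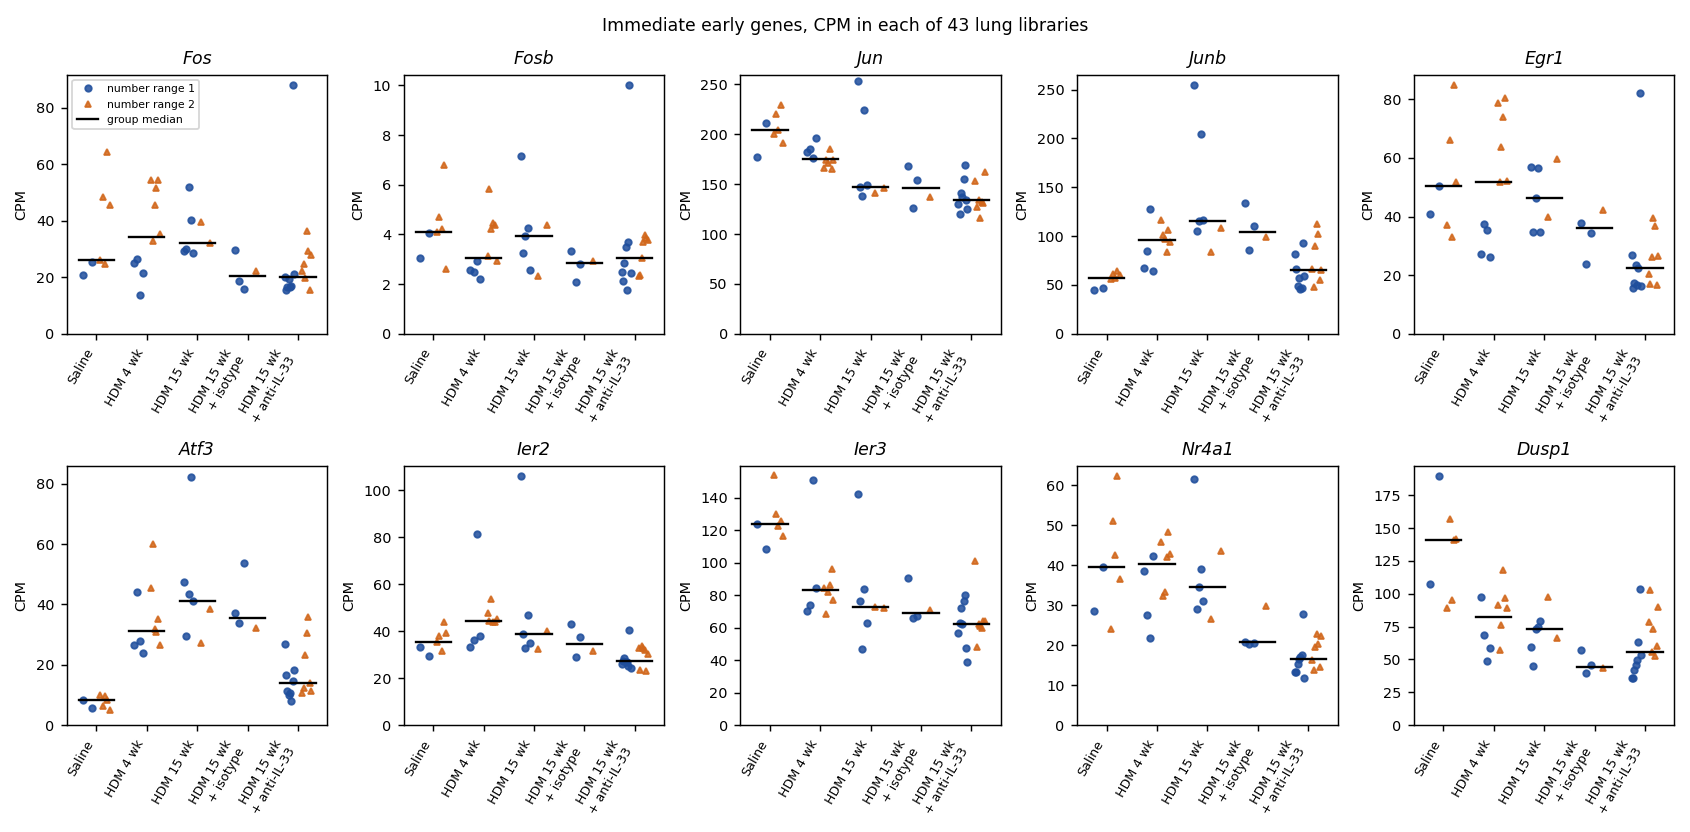
CPM (y axis, starting at 0 and scaled separately in each panel) of the 10 immediate early genes in each of the 43 libraries, by group on the x axis. Points are single libraries, with circles and triangles for the 2 ranges of sample numbers, and lines are group medians. Atf3 in saline lies between 4.86 and 10.003 CPM, below every library of both HDM groups without antibody, whereas Fos overlaps across all groups.

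The first question was how the members stood after 4 and 15 weeks of HDM. Atf3 and Junb rose at both times, Dusp1, Ier3 and Jun fell at both times, and Fos, Fosb, Egr1, Nr4a1 and Ier2 passed the test at neither. Both contrasts use the same saline libraries, so the second is not an independent repeat of the first. A gene is said to rise or fall where the Benjamini-Hochberg adjusted p from edgeR's quasi-likelihood test was under 0.05 over all 15598 genes. By that rule 56.8% of all genes were called at 4 weeks and 59.2% at 15 weeks, so 5 of 10 members at each time is near the background. In the upward direction 29.3% of genes were called at 4 weeks and in the downward direction 27.5%, beside 2 and 3 members. The median log2 fold change of the members was -0.04 at 4 weeks and 0.00080 at 15 weeks, beside 0.010 and 0.015 over all genes.

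Atf3 encodes a stress-induced ATF/CREB family factor that pairs with JUN proteins (Entrez 11910, chromosome 1, 191170296 to 191183333, GRCm38). Its lowest, median and highest saline values were 4.86, 8.17 and 10.003 CPM. After 4 weeks of HDM they were 23.97, 31.4 and 60.2 CPM, and after 15 weeks 27.2, 41.3 and 82.1 CPM. All 10 libraries at 4 weeks and all 7 at 15 weeks lay above every saline library. The log2 fold change was 2.23 ± 0.28 (SE), or 4.69-fold, at 4 weeks (adjusted p = 2.28e-08) and 2.62 ± 0.30, or 6.16-fold, at 15 weeks (adjusted p = 3.43e-09). Atf3 rose in each number range taken alone.

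Junb, an AP-1 subunit that restrains JUN in many settings (Entrez 16477, chromosome 8, 84976909 to 84978748), ran from 45.3 through a median of 57.2 to 64.6 CPM in saline. At 4 weeks it ran from 64.7 through 95.6 to 128 CPM, and at 15 weeks from 83.8 through 115 to 255 CPM. Neither HDM group overlapped saline, as held for 9.99% of all genes in the upward direction at 4 weeks and 14.7% at 15 weeks. The 255 and 205 CPM at 15 weeks were replicates 1 and 4, and the other 5 libraries were at or below 116 CPM. Junb rose by 0.76 ± 0.19 at 4 weeks (adjusted p = 0.00103) and by 1.40 ± 0.22 at 15 weeks (adjusted p = 1.18e-06). In number range 1 alone, with 4 against 2 libraries, the 4-week value was 0.91 and did not pass (adjusted p = 0.0946).

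Jun encodes the central AP-1 subunit (Entrez 16476, chromosome 4, 95049036 to 95052222). Its saline values ran from 178 through a median of 205 to 229 CPM, the 4-week values from 166 through 175 to 196 CPM. At 15 weeks the median was lower still, at 147 CPM, but the range of 138 to 253 CPM was wide because replicates 1 and 4 read 253 and 224 CPM. Jun went the opposite way from Junb, although the groups overlapped. It fell by 0.30 ± 0.11 at 15 weeks (adjusted p = 0.0175) and by 0.22 ± 0.10 at 4 weeks (adjusted p = 0.0496). The 4-week call held in 3 of 17 fits that left out 1 library, with an adjusted p up to 0.112 without saline replicate 6. It held in 5 of 11 other alternatives, and limma-voom was among those that lost it (-0.21, adjusted p = 0.0561). The 15-week call held in 9 of the 11. The 15-week call was lost without replicate 6 (-0.25, adjusted p = 0.0549), and neither passed in number range 1 (-0.06 and -0.09).

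Fos, the partner of JUN in the classical AP-1 dimer (Entrez 14281, chromosome 12, 85473890 to 85477274), did not separate the groups. It ran from 20.7 through a median of 25.99 to 64.2 CPM in saline, from 13.8 through 34.2 to 54.5 CPM at 4 weeks and from 28.6 through 32.3 to 51.9 CPM at 15 weeks. At 4 weeks the 4 libraries of number range 1 lay at 13.8 to 26.4 CPM and the 6 of range 2 at 32.95 to 54.5 CPM, with no overlap. The log2 difference from saline was 0.02 ± 0.28 at 4 weeks (adjusted p = 0.968) and 0.17 ± 0.32 at 15 weeks (adjusted p = 0.675). The interval of 2 SE around the latter, -0.48 to 0.81, leaves room for a change in either direction. Fosb, its close relative (Entrez 14282, chromosome 7, 19302696 to 19310118), averaged 4.22 ± 1.34 CPM (SD, n = 7) in saline, 3.51 ± 1.15 (n = 10) at 4 weeks and 3.98 ± 1.60 (n = 7) at 15 weeks. Its log2 differences were -0.24 ± 0.25 (adjusted p = 0.421) and -0.02 ± 0.29 (adjusted p = 0.947).

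Egr1 encodes a zinc finger factor induced through SRF (Entrez 13653). Its saline range of 33.2 to 84.99 CPM, with a median of 50.5, enclosed all 7 libraries at 15 weeks, which ran from 34.7 through 46.5 to 59.7 CPM. At 4 weeks it ran from 26.2 through 51.9 to 80.6 CPM, and as for Fos the ranges of sample numbers did not overlap, at 26.2 to 37.4 and 51.7 to 80.6 CPM. The log2 difference from saline was 0.02 ± 0.26 at 4 weeks (adjusted p = 0.951) and -0.00054 ± 0.30 at 15 weeks (adjusted p = 0.999). Nr4a1, known for its rapid induction in macrophages and T cells (Entrez 15370, chromosome 15, 101253902 to 101274795), had saline values from 24.1 through 39.6 to 62.4 CPM. It ran from 21.8 through 40.3 to 48.5 CPM at 4 weeks and from 26.6 through 34.5 to 61.5 CPM at 15 weeks. At 15 weeks its log2 difference was 0.0021 ± 0.19 (adjusted p = 0.993), with 2 SE from -0.38 to 0.39.

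Dusp1, the MAP kinase phosphatase that also mediates part of the anti-inflammatory action of glucocorticoids (Entrez 19252, chromosome 17, 26505591 to 26508472), was lower after HDM. It ran from 89.1 through a median of 141 to 190 CPM in saline, from 49.2 through 82.6 to 118 CPM at 4 weeks and from 44.7 through 73.1 to 97.3 CPM at 15 weeks. At 15 weeks 6 of 7 libraries were below every saline library. Dusp1 fell by 0.70 ± 0.19 at 4 weeks (adjusted p = 0.00178) and by 0.80 ± 0.21 at 15 weeks (adjusted p = 0.00138). Between the 2 and 5 libraries of number range 2 the 15-week value was -0.59 (adjusted p = 0.10).

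Ier3, a stress-response gene that affects survival and ERK signalling (Entrez 15937, chromosome 17, 35821713 to 35822911), also fell. Saline libraries ran from 109 through 124 to 154 CPM, 4-week libraries from 68.5 through 83.0 to 151 CPM and 15-week libraries from 46.9 through 72.6 to 142 CPM. Apart from replicate 3 at 4 weeks and replicate 1 at 15 weeks, at 151 and 142 CPM, every HDM library without antibody was below every saline library. The falls were 0.53 ± 0.16 at 4 weeks (adjusted p = 0.00499) and 0.68 ± 0.18 at 15 weeks (adjusted p = 0.00184). These 2 libraries are in number range 1, and within that range alone neither fall passed (-0.28, adjusted p = 0.604, and -0.49, adjusted p = 0.277). Ier2, a nuclear protein gene (Entrez 15936, chromosome 8, 84661331 to 84662852), read highest in the same 2 libraries, at 81.4 and 106 CPM, beside medians of 44.2 and 38.6 CPM in their groups and 35.5 CPM in saline. Its log2 differences of 0.37 ± 0.18 (adjusted p = 0.0699) and 0.39 ± 0.20 (adjusted p = 0.0915) did not pass. At 4 weeks it passed without those 2 libraries (0.26, adjusted p = 0.0258), without 4-week replicate 1 (0.42, adjusted p = 0.044) and without saline replicate 6 (0.43, adjusted p = 0.0496). At 15 weeks it passed without replicate 6 (0.49, adjusted p = 0.0401).

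Between 4 and 15 weeks of HDM, where 21.4% of all genes were called, 12.3% as higher and 9.08% as lower, Junb was the 1 member that passed. It was higher at 15 weeks by 0.64 ± 0.20 (adjusted p = 0.0167), and 2 of 7 libraries exceeded every 4-week library. For 1.53% of genes all 15-week libraries did so. Those were replicates 1 and 4: without the first the value was 0.43 (adjusted p = 0.0863) and without the second 0.53 (adjusted p = 0.0603). In number range 2, with 2 libraries at 15 weeks, the sign turned (-0.05, adjusted p = 0.952). Atf3 differed by 0.39 ± 0.25 (adjusted p = 0.269), and the other 8 members by -0.14 to 0.22. In edgeR's test of whether the HDM effect differed between the number ranges, 0 genes passed at either time, with 561 and 542 at an unadjusted p under 0.05, and limma-voom also called 0. For the members the smallest unadjusted p in that test was 0.0164 (adjusted p = 0.96), for Junb at 15 weeks.

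The RNA of cell type markers also changed in the same libraries, and in bulk RNA fewer cells of a type cannot be told apart from less RNA per cell. Endothelial markers summed to 2895 to 3867 CPM in saline, 1695 to 2621 at 4 weeks and 1245 to 1944 at 15 weeks, and 7 and then 9 of 10 were lower. Smooth muscle and fibroblast markers summed to 2282 to 2862 CPM in saline and 981 to 1922 at 15 weeks, with 5 of 10 lower, after 4 higher and 3 lower at 4 weeks. The 4 higher were the smooth muscle genes Acta2, Myh11, Tagln and Des, which did not pass at 15 weeks. The 5 lower at 15 weeks were the smooth muscle gene Cnn1 and the fibroblast genes Pdgfra, Tcf21, Inmt and Dcn. Inmt alone went from a mean of 1100 CPM in saline to 168 CPM at 15 weeks. Monocyte and macrophage markers went the other way, from 2509 to 5175 CPM in saline to 9216 to 15187 at 15 weeks, with 8 of 10 higher at each time and 1 lower at 15 weeks. Most of that sum is Lyz2, at a mean of 3540 CPM in saline and 10070 CPM at 15 weeks, while Cd68 went from 40.2 to 462 CPM and C1qa from 26.1 to 127 CPM. Neutrophil markers summed to 147 to 294 CPM in saline and 275 to 640 at 15 weeks, with 8 of 9 higher, after 3 higher and 2 lower at 4 weeks. Markers of T, NK and B cells and of epithelium had members in both directions at each time. No marker was at 0 throughout a group. Of all genes 29.3% were higher and 27.5% lower at 4 weeks, and 31.2% and 28.1% at 15 weeks. At 4 weeks the monocyte and macrophage sum was 5464 to 7091 CPM, so it and the endothelial sum lay apart from saline at both times. The 4-week sums of neutrophil markers (185 to 479 CPM) and of smooth muscle and fibroblast markers (1564 to 2775 CPM) overlapped saline. So did those of lymphoid and epithelial markers. The part of these markers in the rise of Atf3 and Junb and in the fall of Dusp1, Ier3 and Jun was not tested.

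**Figure D2:**
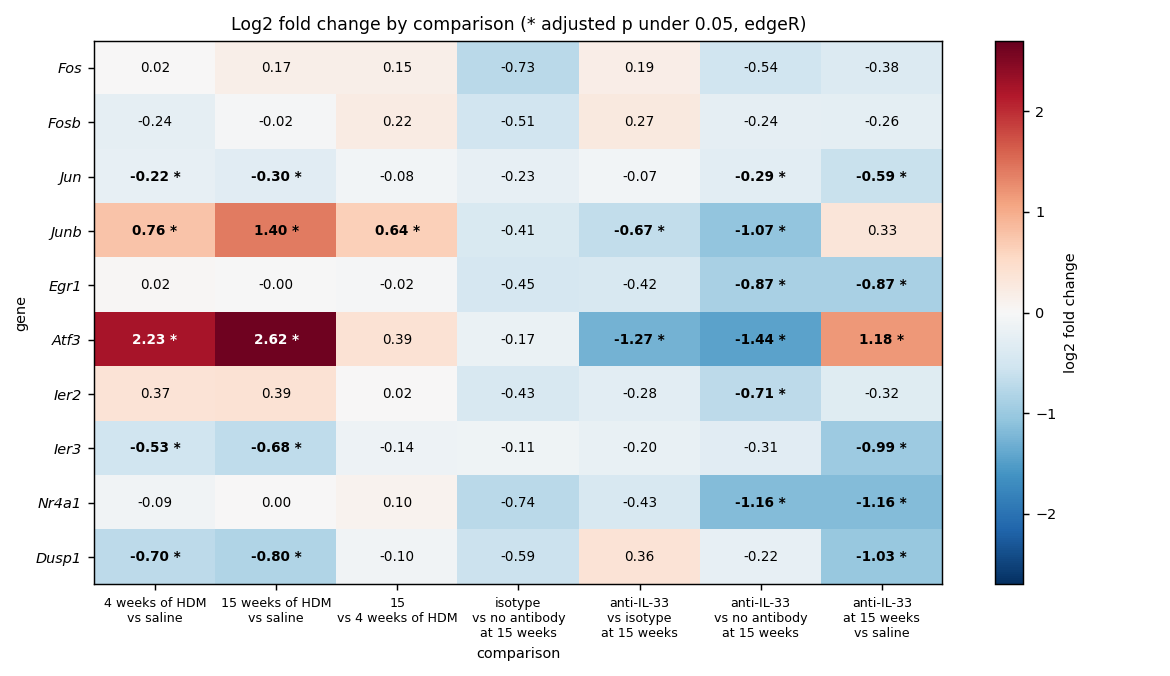
Log2 fold change of the 10 members (rows) in the 7 comparisons (columns). Colour gives direction and size on the printed scale, and bold values with a star passed an adjusted p under 0.05 in edgeR's test. Atf3 and Junb are positive in the HDM columns and negative in the columns that set anti-IL-33 against 15 weeks of HDM, while Dusp1, Ier3 and Jun are negative in every column against saline.

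The second question was how the members stood in mice given anti-IL-33 with the 15 weeks of HDM. Against the isotype antibody Atf3 and Junb were lower and no other member passed, in a comparison that called 6.71% of all genes, 3.58% as higher and 3.14% as lower. That share depended on single libraries: the 1047 genes called became 58, with 0 members, without isotype replicate 3 and 94, with 1 member, without isotype replicate 1, and across the 19 fits that left out 1 library they ran from 58 to 1502, with 0 to 3 members. Against HDM without antibody 6 of 10 members were lower and none was higher, with 35.8% of genes called and 19.9% called lower. The median log2 difference of the members was -0.24 and -0.62 in these comparisons, beside 0.011 and 0.0022 over all genes. Both use the same 15 anti-IL-33 libraries. The contrast of isotype with no antibody called 0 genes in edgeR, with 933 at an unadjusted p under 0.05, while DESeq2 called 8 and limma-voom 0. In that contrast the members' median log2 difference was -0.44, beside -0.025 over all genes. Member values ran from -0.74 (Nr4a1) to -0.11 (Ier3), and 2 of 10 had an unadjusted p under 0.05 in edgeR's test. Every member's value was thus negative with the isotype, but no member passed. The values of Atf3 and Ier3 changed sign in some fits that left out 1 library, up to 0.07 and 0.10.

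Atf3 read 37.1, 33.9, 53.8 and 32.1 CPM in the 4 isotype libraries. With anti-IL-33 it ran from 8.13 through a median of 13.9 to 35.9 CPM, and 14 of 15 libraries were below every isotype library. No member separated these groups fully, as 0.904% of genes did downward and 1.53% upward. It fell by 1.27 ± 0.27 against isotype (adjusted p = 0.00646) and by 1.44 ± 0.23 against no antibody (adjusted p = 4.27e-05). The call against isotype was lost without isotype replicate 3, the highest of the 4 (-1.07, adjusted p = 0.089). In number range 2, which holds 1 isotype library and 2 without antibody, the values were -0.72 (adjusted p = 0.807) and -0.75 (adjusted p = 0.489). Atf3 nevertheless stayed above saline, by 1.18 ± 0.26 (adjusted p = 3.41e-04), with 13 of 15 libraries above every saline library. All 15 were above for 5.08% of genes.

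Junb read 133, 85.4, 110 and 99.1 CPM with the isotype, and ran from 45.8 through 64.9 to 112 CPM with anti-IL-33. Of the 15 libraries 11 were below every isotype library. It fell by 0.67 ± 0.21 against isotype, at an adjusted p of 0.0480, and by 1.07 ± 0.17 against no antibody (adjusted p = 5.71e-05). The first of these held in 6 of 19 fits that left out 1 library. Without isotype replicate 1 it was -0.54 (adjusted p = 0.263), and it did not pass in number range 1 (-0.82, adjusted p = 0.103). Against saline Junb differed by 0.33 ± 0.18 and did not pass (adjusted p = 0.151), with 2 SE from -0.03 to 0.69.

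Nr4a1 had its lowest group median in the anti-IL-33 libraries, from 11.9 through a median of 16.7 to 27.9 CPM. The isotype libraries read 20.7, 20.2, 20.7 and 29.9 CPM, also low beside the 26.6 to 61.5 CPM of HDM without antibody. Nr4a1 fell by 1.16 ± 0.16 against no antibody (adjusted p = 7.16e-06) and by 1.16 ± 0.16 against saline (adjusted p = 2.40e-07), with 14 of 15 libraries below every library of each of those groups. Against isotype the difference was -0.43 ± 0.20 and did not pass (adjusted p = 0.151). The isotype libraries themselves differed from no antibody by -0.74 ± 0.23, at an unadjusted p of 0.00224 and an adjusted p of 0.784. So 3 of the 4 isotype libraries lay below all 7 without antibody.

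Egr1 showed a like pattern with more spread. It ran from 15.5 through 22.4 to 82.0 CPM with anti-IL-33 and read 37.9, 23.7, 34.5 and 42.1 CPM with the isotype. It fell by 0.87 ± 0.24 against no antibody (adjusted p = 0.00614) and by 0.87 ± 0.24 against saline (adjusted p = 0.00426), while against isotype the difference was -0.42 ± 0.30 (adjusted p = 0.346). The 82.0 CPM was replicate 7, and the next library read 39.6 CPM. Without replicate 7 Egr1 passed against isotype too (-0.72, adjusted p = 0.0442). In number range 1 alone the value against no antibody was -0.75 (adjusted p = 0.0841).

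Fos rested on the same library. With anti-IL-33 it ran from 15.5 through 20.1 to 88.1 CPM, where 88.1 was replicate 7 and the next was 36.3 CPM. The isotype libraries read 29.7, 18.8, 16.04 and 22.1 CPM. Fos differed by -0.54 ± 0.26 from no antibody (adjusted p = 0.0986) and by -0.38 ± 0.27 from saline (adjusted p = 0.279), and passed neither, while limma-voom called the first (-0.73, adjusted p = 0.0150) and number range 2 alone the second (-0.73, adjusted p = 0.0143). Without replicate 7 it fell by 0.90 against no antibody (adjusted p = 4.82e-04) and by 0.61 against saline (adjusted p = 0.00628). Fosb, at 10.03 CPM in replicate 7 and 1.78 to 3.99 CPM in the other 14 libraries, passed in none of these comparisons.

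Of the remaining members Jun, Ier3 and Dusp1 passed against saline, while Jun and Ier2 passed against no antibody. Jun ran from 116 through 134 to 170 CPM with anti-IL-33, and Ier3 from 39.1 through 62.2 to 101 CPM, and for both genes all 15 libraries were below all 7 saline libraries, as held for 4.78% of genes in that direction. Against saline, where 20% of all genes were higher and 18.5% lower (38.6% in all), Jun fell by 0.59 ± 0.09 (adjusted p = 1.24e-06), Ier3 by 0.99 ± 0.15 (adjusted p = 1.34e-06) and Dusp1 by 1.03 ± 0.17 (adjusted p = 7.72e-06). Dusp1 read 57.2, 39.5, 45.6 and 43.5 CPM with the isotype and ran from 35.7 through 56.1 to 104 CPM with anti-IL-33. Its difference from isotype was 0.36 ± 0.23 (adjusted p = 0.289), and its group median was lowest with the isotype. Ier2 ran from 23.2 through 27.4 to 40.6 CPM and fell by 0.71 ± 0.16 against no antibody (adjusted p = 0.00146), while its difference from saline was -0.32 ± 0.16 (adjusted p = 0.121). The difference from saline passed in 4 of 11 alternatives: with GC and length offsets (-0.45, adjusted p = 7.67e-05), in number range 2 (-0.34, adjusted p = 0.0122), with only those 2 groups (-0.28, adjusted p = 0.0198) and without 15-week replicate 1 and 4-week replicate 3 (-0.28, adjusted p = 0.0145). Without those 2 libraries Ier2 also passed against isotype (-0.33, adjusted p = 0.0341). Jun also fell against no antibody, by 0.29 ± 0.09 (adjusted p = 0.0108), but not without 15-week replicate 1 (-0.19, adjusted p = 0.0766) or replicate 4 (-0.23, adjusted p = 0.0504). Ier3 differed there by -0.31 ± 0.15 (adjusted p = 0.103). It passed without 15-week replicate 3 (-0.40, adjusted p = 0.0337) or anti-IL-33 replicate 9 (-0.37, adjusted p = 0.0454).

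In number range 1 alone, with 2 saline libraries, Nr4a1 and Dusp1 passed against saline and Atf3 (1.02, adjusted p = 0.174), Egr1, Jun and Ier3 did not. In number range 2 alone, where HDM without antibody has 2 libraries, 0 members passed against no antibody in edgeR, with 2 at an unadjusted p under 0.05. Neutrophil markers summed to 122 to 282 CPM with anti-IL-33 against 275 to 640 CPM without antibody, with 7 of 9 lower against no antibody and 6 of 9 lower against isotype. Endothelial markers summed to 1231 to 2785 CPM and monocyte and macrophage markers to 6160 to 20872 CPM with anti-IL-33, of which 2 of 10 endothelial markers were higher and 1 of 10 monocyte and macrophage markers (Ly6c2) lower against no antibody. Of the smooth muscle and fibroblast markers 5 of 10 were higher in that comparison (Inmt by 1.49 ± 0.26, Tcf21 by 1.22 ± 0.24) and 1 lower (Acta2). They summed to 1042 to 2214 CPM against 981 to 1922 CPM. Of the T, NK and B cell markers 4 of 9 were higher (Ncr1 by 1.95 ± 0.31, Cd8a by 1.26 ± 0.28) and 0 lower, summing to 152 to 505 CPM against 151 to 295 CPM. Epithelial markers went both ways, with 3 of 10 higher and 4 lower. The sums of the 2 groups overlapped in each of these classes. Of all genes 19.9% were lower and 15.9% higher against no antibody, and 3.14% lower and 3.58% higher against isotype. Against isotype 0 of 9 T, NK and B cell markers passed, with Ncr1 at 0.25 ± 0.32. The isotype libraries themselves differed from no antibody by 1.70 ± 0.39 for Ncr1, which did not pass (adjusted p = 0.137). Of the smooth muscle and fibroblast markers 1 of 10 was higher against isotype (Tcf21) and 0 lower. Of the epithelial markers 1 of 10 was higher and 1 lower there, and of the endothelial markers 0 were higher and 1 lower. The part of the neutrophil, stromal, lymphoid and epithelial markers in the members' differences was not tested.

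Whether members varied together from library to library was examined on log2 CPM after the mean of each group within each number range had been subtracted, over 43 libraries. Of the 45 pairs, 16 passed a permutation test with Benjamini-Hochberg adjustment by Pearson's r, and 16 by Spearman's rho, and all 16 Pearson calls were positive. The permutations kept libraries within their group and range. Values of r ran from -0.36 to 0.80 with a median of 0.31, and 30 pairs were positive within each range. Libraries share their own scaling and cell content in such values, which were not separated here.

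Fos and Egr1 had the highest r of the 45 pairs, at 0.80 (permutation p = 2e-05, adjusted p = 0.0003), and rho = 0.67 (permutation p = 4e-05, adjusted p = 0.00045). Without the 2 libraries farthest from the median of Fos, r was 0.62. The highest rho was that of Junb and Egr1, at 0.72 (permutation p = 1e-05, adjusted p = 0.000225). Their r was 0.68, and 0.71 without the 2 farthest. Fosb and Egr1 had r = 0.73 and rho = 0.61, with r = 0.56 without the 2 farthest. Junb and Ier2 had r = 0.76 (permutation p = 2e-05, adjusted p = 0.0003) and rho = 0.70 (permutation p = 1e-05, the smallest the permutations can give, adjusted p = 0.000225), and r was 0.70 without the 2 farthest. Fos and Dusp1 had r = 0.69 (permutation p = 6e-05, adjusted p = 0.00045) and rho = 0.62 (permutation p = 6e-05, adjusted p = 0.00045), with 0.59 without the 2 farthest. Junb and Atf3, the members that rose with HDM, had r = 0.62 (permutation p = 0.00036, adjusted p = 0.00202) and rho = 0.69 (permutation p = 3e-05, adjusted p = 0.00045), and r was 0.71 without the 2 farthest. Not every pair was this close. Atf3 and Fos had r = 0.08 (permutation p = 0.683, adjusted p = 0.751) and rho = 0.10 (permutation p = 0.542, adjusted p = 0.642). Fos and Fosb had r = 0.50 but only 0.08 without the 2 farthest libraries, so their relation rests on those samples (permutation p = 0.0348, adjusted p = 0.0823). Averaged over its 9 partners, Egr1 had the highest mean r at 0.48, and Atf3 the lowest at 0.07.

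**Figure D3:**
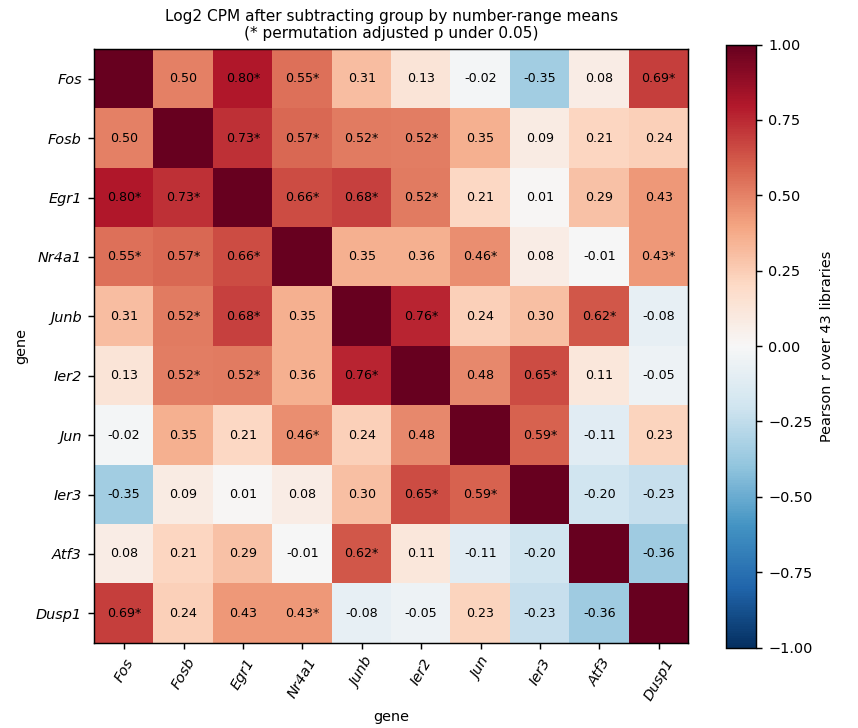
Pearson r between members over 43 libraries, on log2 CPM from which the mean of each group within each range of sample numbers was subtracted. Rows and columns are genes, colour and printed value give r, and a star marks a permutation adjusted p under 0.05. Fos with Egr1, at 0.80, and Junb with Ier2, at 0.76, have the highest values, and the Atf3 row has a star only at Junb.

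Among the 8 genes outside the list whose residuals had the highest mean r to the 10 members over the 43 libraries were Ccn1 (0.47), Zfp36 (0.46), Ormdl3 (0.46), Agpat2 (0.45), Slc25a1 (0.44), Igfals (0.43) and Med26 (0.43). Ccn1, which encodes a matricellular protein, and Zfp36, which encodes an mRNA decay protein, are themselves immediate early genes. Ccn1 averaged 108 ± 16.7 CPM in saline (SD, n = 7), 144 ± 69.0 without antibody at 15 weeks (n = 7), 52.8 ± 13.2 with the isotype (n = 4) and 41.5 ± 14.9 with anti-IL-33 (n = 15). Like Nr4a1 it fell against no antibody (by 1.83 ± 0.19, adjusted p = 6.98e-08) and did not pass against isotype (-0.38 ± 0.24, adjusted p = 0.299).

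Other genes of the pathway were read from lists. Among 26 further immediate early genes 13 rose and 1 fell (Gadd45b) at 4 weeks, where 29.3% of all genes rose and 27.5% fell. At 15 weeks 15 rose and 2 fell (Nr4a2 and Klf6), where 31.2% of all genes rose and 28.1% fell. Their median log2 fold change at 15 weeks was 0.49, beside 0.00080 for the 10 members. Egr2, a relative of Egr1 that is active in alternatively activated macrophages, rose by 2.44 ± 0.25 at 4 weeks (adjusted p = 4.39e-10) and 2.36 ± 0.27 at 15 weeks (adjusted p = 3.05e-09). Its saline range of 4.17 to 9.34 CPM lay below its 15-week range of 24.3 to 48.8 CPM, whereas the ranges of Egr1 overlapped. Plk3, a stress-induced kinase gene, rose by 1.61 ± 0.22 and 2.28 ± 0.24, and Myc, the growth regulator, by 1.04 ± 0.15 and 1.17 ± 0.17. Socs3, an inhibitor of IL-6 family signalling, rose by 0.65 ± 0.21 and 2.07 ± 0.24. Against no antibody 17 of the 26 were lower with anti-IL-33 and 1, Klf6, was higher (0.23 ± 0.08), against 6 and 0 of the 10 members, and against isotype 1 was lower, Plk3 (-0.77 ± 0.23, adjusted p = 0.0371). Of all genes 19.9% were lower and 15.9% higher against no antibody, and 3.14% were lower against isotype.

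Of 11 further AP-1 and ATF partners 10 had enough counts, all but Fosl1. At 15 weeks 7 of these rose and none fell, and at 4 weeks 4 rose and 1 fell. Of all genes 31.2% rose and 28.1% fell at 15 weeks, and 29.3% rose and 27.5% fell at 4 weeks. Batf, a partner of JUN proteins in lymphocytes, rose by 1.28 ± 0.17 and 1.44 ± 0.19 at 4 and 15 weeks. Batf3, needed for cross-presenting dendritic cells, rose by 2.56 ± 0.20 and 1.36 ± 0.21. Fosl2, a FOS relative, was 0.19 ± 0.12 at 4 weeks (adjusted p = 0.19) and rose by 0.92 ± 0.14 at 15 weeks, while Mafk, a small MAF protein gene, fell by 0.40 at 4 weeks. Fosl2, Batf and Batf3 therefore rose at 15 weeks, where Fos and Fosb did not pass. Whether these genes differ from Fos and Fosb was not tested. With anti-IL-33 7 of 10 were lower against no antibody, and 1, Atf4, against isotype (-0.46 ± 0.15, adjusted p = 0.0486). Of all genes 19.9% and 3.14% were lower in these comparisons.

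**Figure D4:**
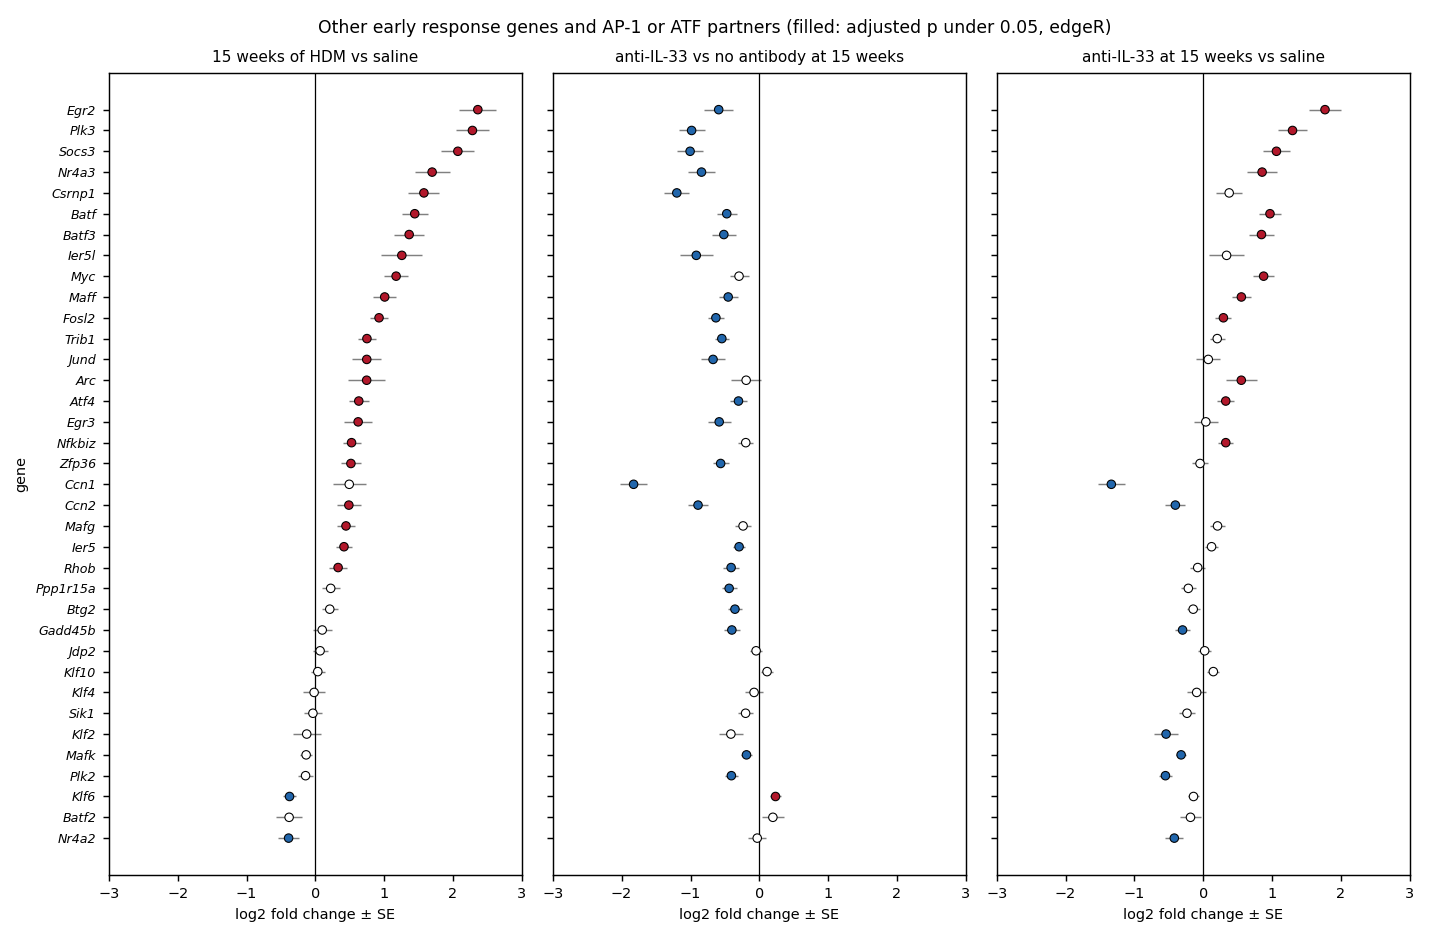
Log2 fold change (x axis, points, with SE bars) of 36 further immediate early genes and AP-1 or ATF partners (y axis) in 3 comparisons. Filled points passed an adjusted p under 0.05 in edgeR's test, red higher and blue lower. Egr2 at 2.36 heads the column of 15 weeks of HDM against saline, and Ccn1 at -1.83 is the lowest in the column of anti-IL-33 against no antibody.

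Dusp1 can be set beside 10 other MAP kinase phosphatase genes, of which 5 fell at each time, 1 rose at 4 weeks (Dusp2) and 2 rose at 15 weeks (Dusp5 and Dusp9). Of all genes 27.5% fell and 29.3% rose at 4 weeks, and 28.1% fell and 31.2% rose at 15 weeks. Dusp7, which acts on ERK, fell by 0.77 at 4 weeks and 0.85 at 15 weeks, and Dusp3 by 0.42 and 0.36. Dusp16, which acts on JNK and p38, fell by 0.45 and 0.33, while Dusp5, an ERK phosphatase of the nucleus, was -0.02 ± 0.20 at 4 weeks (adjusted p = 0.95) and rose by 0.83 ± 0.22 at 15 weeks. Against saline 5 of the 10 were lower with anti-IL-33, as Dusp1 was, and none higher, beside 18.5% of all genes lower and 20% higher.

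Upstream of the members, 17 kinase, SRF and CREB genes were split, with 6 higher and 6 lower at 4 weeks and 7 and 6 at 15 weeks. Of all genes 29.3% were higher and 27.5% lower at 4 weeks, and 31.2% and 28.1% at 15 weeks. Map2k1 and Map2k2, the kinases of ERK, rose by 0.43 ± 0.07 and 1.005 ± 0.18 at 15 weeks, and Mapk9, a JNK gene, fell by 0.45. Map2k2 ran from 65.3 through a median of 70.7 to 202 CPM at 15 weeks, beside 40.5 through 49.1 to 52.4 CPM in saline. Creb1 fell by 0.47 at 4 weeks and Mrtfb, a cofactor of SRF, by 0.72. Of 7 genes for the EGF receptor and its ligands, 2 rose (Areg and Ereg) and 3 fell (Egfr, Tgfa and Btc) at 15 weeks. The ligand gene Areg rose by 1.83 ± 0.31 from a saline mean of 2.45 ± 0.84 CPM (SD, n = 7), and Tgfa and Btc fell by 1.08 and 1.26. The receptor gene Egfr fell by 0.85 at 4 weeks.

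Heat shock and glucocorticoid-responsive genes share inducers with several members and were read beside them. Of 8 heat shock genes 5 rose and 1 fell (Hsp90aa1) at 15 weeks, where 31.2% of all genes rose and 28.1% fell. Hspa1a and Hspa1b, which are nearly the same in sequence so that reads may be divided unevenly between them, rose by 1.63 ± 0.24 and 1.96 ± 0.27, and the cochaperone gene Dnajb1 by 0.45 ± 0.10, whereas Hspb1 fell by 0.56 at 4 weeks. Of 7 glucocorticoid-responsive genes 5 rose and 1 fell at 15 weeks. Sgk1 rose by 1.299 ± 0.21 and Cdkn1a by 0.94 ± 0.18, while Zbtb16 fell by 2.08, and Dusp1, which is also such a gene, fell as given above. Ddit4 rose by 0.75 ± 0.21 at 4 weeks.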

How the data were processed

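Messenger RNA of lung was sequenced in 43 libraries from stranded mRNA kits, per the labels' protocols. The values are raw counts as the authors deposited them, whole numbers for each Entrez ID and not normalized. The build is GRCm38 per the submitters' processing notes. The aligner, counter, annotation and strand setting were not given in the sources used here, and reads of overlapping or antisense genes may not be told apart. Of 24475 IDs, 24375 were given a symbol from RefSeq (GRCm38.p6), and the other 100 held 2.62% of counts and stayed in the totals. Depth was 4.80 to 12.6 M counts per library.

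R 4.3.3 with edgeR 4.0.16 was used for 1 quasi-likelihood fit over all 43 libraries: TMM scaling, filterByExpr, robust spread, and terms for the 5 groups and the 2 ranges of sample numbers, with 7 contrasts and adjustment over 15598 genes. CPM are counts divided by TMM-scaled library size in M (mega) counts. Correlations used log2 CPM with a prior count of 2 and 100000 permutations within group and range. Levels per kilobase use the longest GENCODE transcript. limma 3.58.1, DESeq2 1.42.0, other size factors, no filter, no range term, each range, only the 2 groups, GC and length offsets, and leaving out each library were alternatives. Leaving out 2 libraries together was added after seeing the data. The fit was tested on simulated counts. Figures were drawn with matplotlib 3.10.9 in Python 3.11.15.

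The members, the lists and the tests were chosen with earlier results of these data known. All 10 members were named in every comparison, with the 8 genes of highest mean r, of which 1 is not reported here, and, from each further list, the 3 smallest p-values at 4 and at 15 weeks. Gadd45b, Nr4a2, Klf6, Dusp2, Dusp9, Ereg, Hsp90aa1, Atf4 and Fosl1, and cell type markers outside that rule, were named after their values were seen. The labels give no pairing.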

Additional observations from a re-analysis of the deposited data

Results flagged for a closer look

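Dixon's test for a single extreme library was run on CPM in the 40 combinations of member and group with 4 to 10 libraries, and 7 had a highest library far from the others. The level of the test is about 1 in 20 for normally spread values. Whether CPM are so spread was not checked, and members share libraries, so the 40 tests are not independent. The flags fell on 4 libraries. HDM15wk replicate 1 stood apart for Ier2 at 106 CPM (next library 46.9), Ier3 at 142 CPM (next 83.8) and Fosb at 7.14 CPM (next 4.37). HDM4wk replicate 3 stood apart for Ier2 at 81.4 CPM (next 53.7) and Ier3 at 151 CPM (next 96.4). HDM15wk replicate 4 stood apart for Atf3 at 82.1 CPM (next 47.4). In the isotype group replicate 4, the 1 library of number range 2, had Nr4a1 at 29.9 CPM beside 20.2 to 20.7 CPM in the other 3. The anti-IL-33 group, with 15 libraries, was not tested in this way.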

How the results depend on the processing

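Depth limits Fosb most, at 11 to 78 counts per library. No paired analysis was possible because the sample numbers in the labels do not repeat across groups. With number range 1 alone, genes called fell to 2308 (4 weeks against saline, 2 members), 4194 (15 weeks against saline, 3 members), 1406 (15 against 4 weeks, 0 members), 297 (anti-IL-33 against isotype, 1 member), 3560 (against no antibody) and 578 (against saline, 2 members). With range 2 alone, which holds 2 libraries of HDM for 15 weeks and 1 with the isotype, they were 149 for 15 against 4 weeks (0 members), 1 between isotype and no antibody, 1 between isotype and anti-IL-33 (0 members) and 4 between the latter and no antibody (0 members). Junb between 15 and 4 weeks reversed there to -0.054 (adjusted p = 0.952). Fewer libraries enter these fits.

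With only the 2 groups compared, 1206 genes and 0 members passed for 15 against 4 weeks and 4153 genes for anti-IL-33 against isotype. The GC and length offsets gave 2 members between 15 and 4 weeks. The contrast of isotype with no antibody, at 0 genes, gave 5 with upper-quartile factors, 7 with no filter, 8 in DESeq2, 4 with no range term and 1 when HDM15wk replicate 1 and HDM4wk replicate 3 were left out. The contrast of anti-IL-33 with isotype, at 1047 genes and 2 members, moved as follows: no filter gave 687 genes and 1 member, DESeq2 1704 genes, no range term 1 member, and leaving out those 2 libraries 4639 genes. Correlated pairs numbered 8 in range 2 alone. The cause of these shifts was not tested. Upper-quartile factors moved the share of calls that were higher for 15 against 4 weeks from 57.5% to 43.7%.

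Leaving out 1 library at a time gave 8277 to 9093 genes and 4 to 5 members for 4 weeks against saline, and 8643 to 9269 genes and 5 members for 15 weeks. It gave 2517 to 3633 genes and 0 to 1 members between 15 and 4 weeks, 0 to 11 genes and 0 members between isotype and no antibody, and 58 to 1502 genes and 0 to 3 members for anti-IL-33 against isotype. For anti-IL-33 it gave 3459 to 6251 genes and 5 to 7 members against no antibody, and 5290 to 6189 genes and 6 to 7 members against saline. Among member values under the other alternatives, 33 lost a call, 12 gained 1 and 1 reversed. A further 43 had the opposite sign with no change of call, as did 45 values when 1 library was left out.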
